A study of Mus musculus with 11 samples.

Results

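A set of 10 genes that respond to glucocorticoids in many tissues, the metallothionein genes Mt1 and Mt2 together with Fkbp5, Tsc22d3, Per1, Sgk1, Zbtb16, Klf9, Cebpd and Pdk4, were followed through RNA sequencing of whole mouse lung. They were taken from a list of names that was chosen with earlier results of these data known. All 10 were found among the 23255 genes measured and among the 16225 genes with a mean of at least 1 that were tested. The study concerns naive CD4+ T cells in lung inflammation caused by osimertinib, an inhibitor of the epidermal growth factor receptor (EGFR) used against lung cancer. All mice were of the C57BL/6 strain. The osimertinib group (5 libraries) received osimertinib after naphthalene, a compound that club cells of the airway convert into a toxic product, so that these mice carry both exposures. The naphthalene group (3 libraries) received naphthalene without osimertinib, and the control group (3 libraries) was untreated. There was no group given osimertinib alone. Dose, interval between treatments, age, sex and hour of collection are not given in the sources used here.

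Glucocorticoid hormones enter the cell and bind the glucocorticoid receptor, which waits in the cytoplasm in a complex with heat shock proteins and co-chaperones. The bound receptor moves to the nucleus, attaches to DNA at glucocorticoid response elements and raises transcription of a shared set of targets, several of which restrain inflammation or feed back on the receptor itself. The adrenal gland releases the hormone in a daily rhythm and under stress, and the lung is a classical target, in which glucocorticoids drive surfactant production and airway differentiation before birth. Metallothioneins are small cysteine-rich proteins that bind zinc and copper, and their genes answer both to metals, through the zinc-sensing factor MTF1, and to glucocorticoids and inflammation.

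Values are given as deposited, in counts scaled to a normalised library size (written CPM here), and each is a whole number of reads times a factor of its library. Libraries held 5045361 to 13009975 gene reads. In osimertinib 2 and in all 3 naphthalene libraries, 1 gene without a name in the annotation took 43.9% to 60.3% of the reads, against at most 0.0337% in the others, which left 2018541 to 2965328 reads outside that gene against 8418669 to 13006929. This read share cannot be told apart from naphthalene treatment in the comparison of naphthalene with control. Between osimertinib and naphthalene the share and the groups largely coincide too, since osimertinib 2 alone of its group has it. Osimertinib 3 stood apart from the other libraries on the first principal component. Another gene took 16.7% of the reads in that library, against 0.836% to 4.55% in the others. The neutrophil marker sum was 409 CPM in osimertinib 3 and 411 CPM in naphthalene 3, against 34.4 to 79.0 CPM elsewhere. B cell markers summed to 43.2 to 103 CPM in osimertinib lungs, 146 to 214 CPM in naphthalene lungs and 135 to 219 CPM in control lungs. Macrophage markers summed to 251 to 346 CPM in osimertinib lungs, 206 to 249 CPM in naphthalene lungs and 204 to 218 CPM in control lungs. Cardiac muscle markers summed to 35.3 to 87.9 CPM in osimertinib, 29.8 to 70.8 CPM in naphthalene and 45.2 to 77.3 CPM in control lungs. Their median log2 difference of osimertinib was 0.58 from naphthalene (7 of 8 above 0) and 0.17 from control (6 of 8). Adipocyte markers summed to 235 CPM in naphthalene 2 and 209 CPM in control 2, against 35.0 to 60.9 CPM elsewhere. Each of these marker lists held 8 genes, all of them measured. The part of heart muscle or fat in the values of the gene set was not tested. The defining epithelial, endothelial and macrophage markers were above 0 in every library. In whole lung, fewer cells of a type and less RNA per cell cannot be told apart. The labels do not say what separates the replicates, and every p-value here measures only the variation among these libraries, some of which may be technical.

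All 10 genes had a higher mean in osimertinib lungs than in naphthalene lungs and than in control lungs, and none of these differences passed the test over all genes. The limma model on log2(CPM + 1), with Benjamini-Hochberg adjustment over 16225 genes, called 0 of the 10 genes between osimertinib and naphthalene (0% of all genes called), 0 of 10 between osimertinib and control (0.00616%, which is 1 gene) and 0 of 10 between naphthalene and control (0%). Both osimertinib comparisons use the same 5 osimertinib libraries, so their directions are not independent of each other. Against naphthalene, the median log2 difference of the 10 genes was 0.60, beside 0.06 over all genes, and 60.5% of all genes also lay above 0. Against control, the median of the 10 was 0.60, beside -0.01 over all genes, of which 48.0% lay above 0. The median of the 10 between naphthalene and control was 0.10, beside -0.06 over all genes, and 6 of the 10 lay above 0, against 38.0% of all genes.

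Before adjustment, 3 of the 10 genes had p under 0.05 between osimertinib and naphthalene, all higher in osimertinib lungs, where 7.08% of all genes were higher at that level. These were Tsc22d3, Sgk1 and Pdk4. Between osimertinib and control, 6 of the 10 had p under 0.05, all higher in osimertinib lungs, where 2.31% of all genes were higher at that level. These were Mt1, Mt2, Fkbp5, Sgk1, Zbtb16 and Pdk4. Because the set was chosen with earlier results of these data known, its counts and medians beside those of all genes are description and no independent test. Between naphthalene and control, 0 of the 10 had p under 0.05, where 7.46% of all genes did. These counts rest in part on single libraries: against control, 3 of 10 remained at p under 0.05 without osimertinib 5, without control 1 or without control 3, and 4 without osimertinib 1. Against naphthalene, the count was 0 without naphthalene 2, 1 without naphthalene 1, 2 without osimertinib 1 or naphthalene 3, and 5 without osimertinib 3. A further fit was blocked by library number, although the labels do not say that equal numbers belong together. Numbers 4 and 5 occur in the osimertinib group alone, so the osimertinib differences of that fit rest on osimertinib 1 to 3. Against naphthalene, 5 of the 10 had p under 0.05 with the block (Mt1, Tsc22d3, Sgk1, Cebpd and Pdk4), beside 9.55% of all genes. Against control, 5 of the 10 had such a p, beside 6.00% of all genes, Cebpd among them and Fkbp5 and Zbtb16 not. No gene of the set passed after adjustment in the blocked fit.

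**Figure D1:**
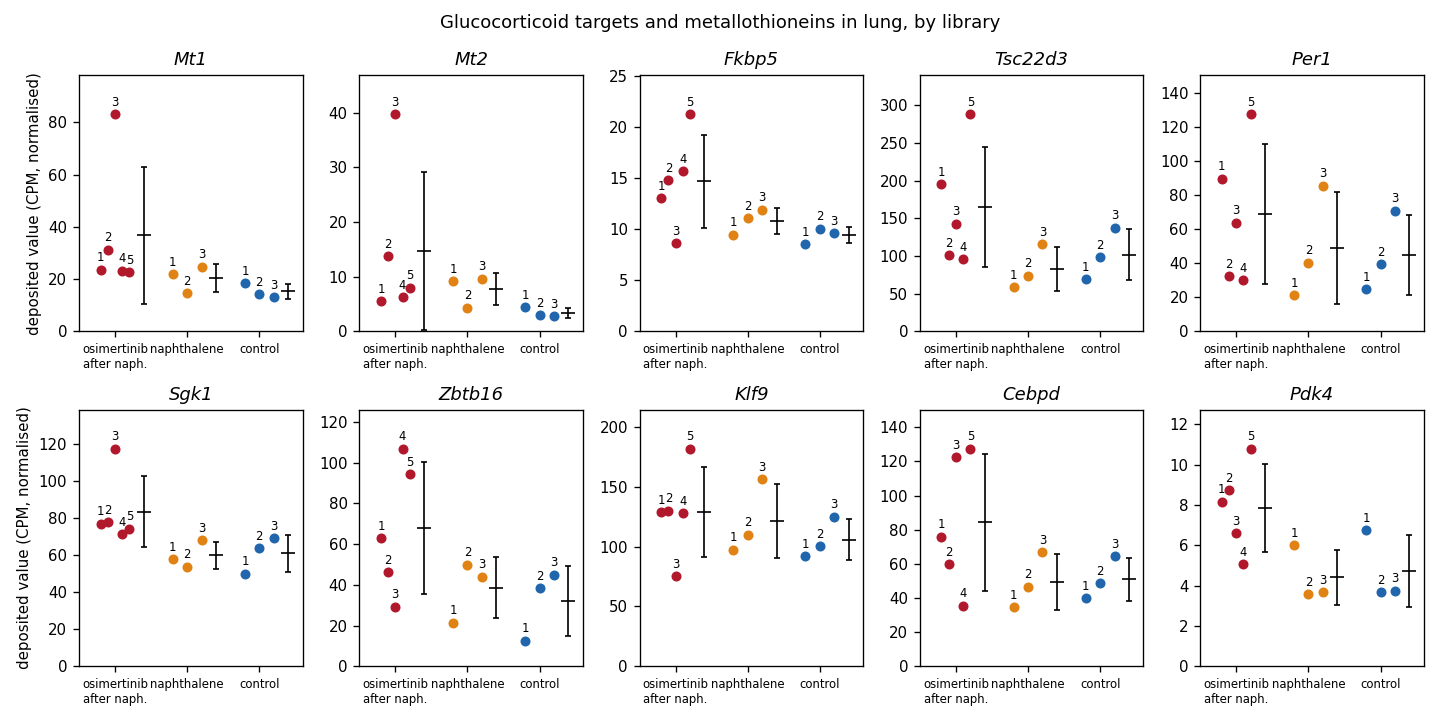
Deposited value (CPM, vertical axis) of each of the 10 genes in each library, with points numbered by replicate and the mean ± SD beside each group (osimertinib n = 5, naphthalene n = 3, control n = 3). In the osimertinib group, library 3 has the highest Mt1, Mt2 and Sgk1 values and the lowest Fkbp5, Zbtb16 and Klf9 values.

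**Figure D2:**
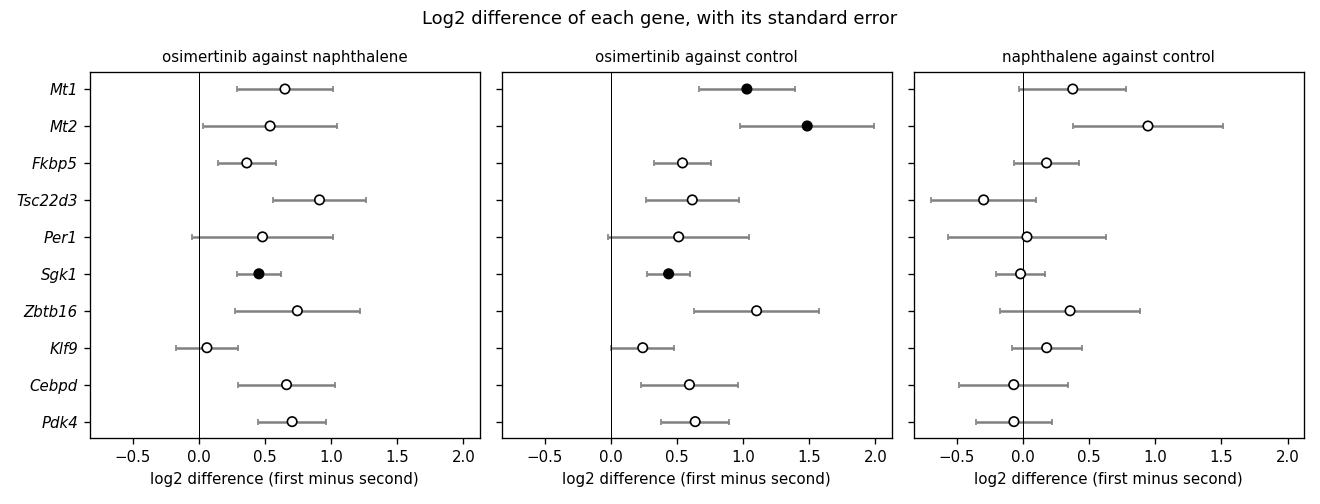
Log2 difference (first group minus second, on log2(CPM + 1)) of each gene with its standard error from the limma model; filled circles mark genes whose groups did not overlap. All points lie above 0 in both osimertinib panels, and the filled circles are Sgk1 in the first panel and Mt1, Mt2 and Sgk1 in the second.

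The metallothionein genes were among the 3 genes of the set with the largest log2 differences from control, Mt2 first and Mt1 after Zbtb16. Mt1 (ENSMUSG00000031765, chromosome 8) had 23.7, 31.2, 83.2, 23.3 and 22.7 CPM in osimertinib lungs, 21.8, 14.6 and 24.8 CPM in naphthalene lungs, and 18.4, 14.3 and 13.1 CPM in control lungs. Mt2 (ENSMUSG00000031762, chromosome 8) had 5.57, 13.8, 39.7, 6.32 and 8.0 CPM in osimertinib lungs, 9.16, 4.35 and 9.64 CPM in naphthalene lungs, and 4.49, 2.95 and 2.74 CPM in control lungs. For both genes every osimertinib library lay above every control library, 1 osimertinib library lay far above all others, and the naphthalene libraries overlapped both other groups. Mt1 averaged 36.8 ± 26.2 CPM in osimertinib lungs and 15.3 ± 2.78 CPM in control lungs (SD, n = 5 and n = 3), a log2 difference of 1.03 (SE 0.36), with a limma adjusted p of 0.775. Mt2 averaged 14.7 ± 14.4 CPM in osimertinib lungs and 3.39 ± 0.956 CPM in control lungs, a log2 difference of 1.48 (SE 0.50), with a limma adjusted p of 0.761. The call on Mt2 depended on the tool: DESeq2 on the recovered reads gave a log2 difference of 2.12 with an adjusted p of 0.0438, and edgeR's quasi-likelihood test an adjusted p of 0.492. DESeq2 called 44 genes higher in that comparison, 0.271% of those tested, and Mt2 was the single one of the 10.

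Osimertinib 3 carried much of the metallothionein difference from naphthalene, and less of that from control. Against naphthalene lungs, which averaged 20.4 ± 5.21 CPM of Mt1 and 7.71 ± 2.92 CPM of Mt2 (SD, n = 3), the log2 differences were 0.65 (SE 0.36) for Mt1 and 0.54 (SE 0.50) for Mt2. Without osimertinib 3 they were 0.31 for Mt1 and 0.10 for Mt2. With the replicate block, which rests on osimertinib 1 to 3, they were 0.96 and 0.92. Against control, the differences without osimertinib 3 were 0.69 (SE 0.18) for Mt1 and 1.05 (SE 0.31) for Mt2, with limma adjusted p of 0.407 and 0.508. Within the 7 libraries without the high read share, osimertinib 1, 3, 4 and 5 against control gave 1.04 for Mt1 and 1.41 for Mt2. Between naphthalene and control, Mt2 had the largest difference of the 10 genes, 0.94 (SE 0.56, limma adjusted p of 0.762), and was the single one of the 10 at 0.5 or more, a size that 1.66% of all genes reached.

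Mt1 and Mt2 lie side by side and varied together from library to library. Over the 11 libraries, log2(CPM + 1) of Mt1 and Mt2 had a Pearson r of 0.97 and a Spearman rho of 0.91, with permutation p of 2e-05 and 0.00024 (adjusted p over the 45 pairs of the 10 genes 0.0009 and 0.0043). This r was the largest of the 45 pairs, while Tsc22d3 with Cebpd had the larger rho. The r was 0.89 without the 2 libraries farthest from the median of Mt1, 0.99 within the 7 libraries without the high read share, and 0.97 for deviations from the group means. The high-share libraries were too few for a value of their own. The longest stretch shared by the annotated transcripts of the pair is 20 bases, and no gene in the file had values identical to those of any of the 10. An antisense gene, Gm45774, overlaps 432 bases of Mt2 exon, and it had 0 to 0.791 CPM. Whether the counting used the strand is not given in the sources used here, so reads of Mt2 and Gm45774 may not be fully separated.

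**Figure D3:**
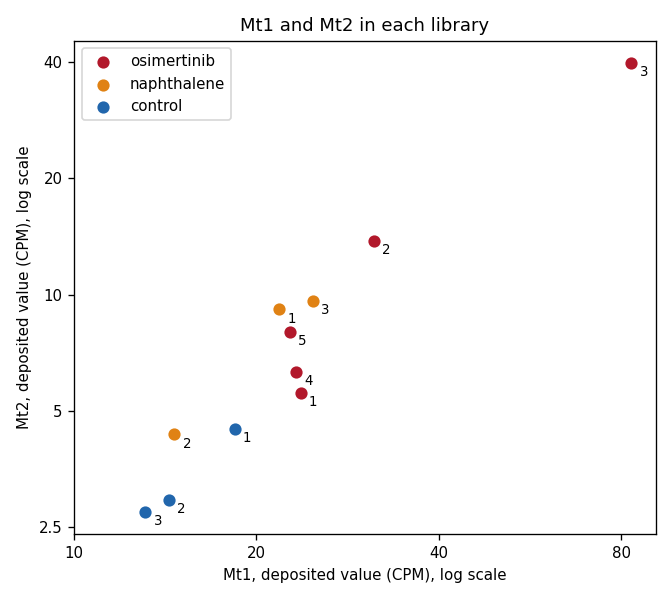
Mt2 against Mt1 (deposited values in CPM, both axes on a log scale) in the 11 libraries, coloured by group and numbered by replicate. The libraries lie along one line, with osimertinib 3 at the upper end (83.2 CPM of Mt1, 39.7 CPM of Mt2) and control 3 at the lower end (13.1 and 2.74 CPM).

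Both promoters hold several copies of the metal response element core, to which MTF1 binds, and are shown because these genes varied together across libraries. The sequences are RefSeq's for GRCm38.p6, from 250 bases before to 50 after the start of the gene, with the core in capitals (TGCACNC or TGCGCNC, searched on both strands). Mt1 at chr8:94178839-94179138 on the + strand holds 3 matches, and Mt2 at chr8:94172368-94172667 on the + strand holds 4. Among 32851 promoters of that length in the table, 25.7% hold at least 1 match, 1.97% at least 3 and 0.517% at least 4. A match is a description of the letters and no measure of binding.
Mt1: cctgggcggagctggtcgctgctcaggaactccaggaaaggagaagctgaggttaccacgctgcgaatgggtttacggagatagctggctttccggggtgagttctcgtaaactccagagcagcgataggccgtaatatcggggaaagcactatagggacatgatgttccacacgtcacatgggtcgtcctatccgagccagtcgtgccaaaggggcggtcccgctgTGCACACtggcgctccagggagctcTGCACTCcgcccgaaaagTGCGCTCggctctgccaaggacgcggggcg
Mt2: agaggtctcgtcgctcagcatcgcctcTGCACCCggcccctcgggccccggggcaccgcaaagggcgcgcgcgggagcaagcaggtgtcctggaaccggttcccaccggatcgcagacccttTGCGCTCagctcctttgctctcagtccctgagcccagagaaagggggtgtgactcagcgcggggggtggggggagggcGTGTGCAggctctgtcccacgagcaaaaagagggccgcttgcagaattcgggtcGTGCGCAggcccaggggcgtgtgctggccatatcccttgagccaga

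Fkbp5, Zbtb16 and Klf9 were low in osimertinib 3, and Zbtb16 and Klf9 each varied with Fkbp5, while the pair Zbtb16 with Klf9 missed the adjusted threshold (r 0.71, adjusted permutation p of 0.0678). Fkbp5 encodes a co-chaperone that lowers the hormone affinity of the receptor and so closes a feedback loop. Fkbp5 (ENSMUSG00000024222, chromosome 17) had 13.1, 14.8, 8.64, 15.7 and 21.3 CPM in osimertinib lungs, 9.47, 11.1 and 11.9 CPM in naphthalene lungs, and 8.58, 10.1 and 9.62 CPM in control lungs. In Fkbp5, 4 of the 5 osimertinib libraries (13.1 CPM and above) were higher than all 6 other libraries, and osimertinib 3 was lower than 5 of those 6. Fkbp5 averaged 14.7 ± 4.59 CPM in osimertinib lungs, 10.8 ± 1.25 CPM in naphthalene lungs and 9.43 ± 0.771 CPM in control lungs (SD). Osimertinib differed by 0.36 (SE 0.22) from naphthalene and 0.54 (SE 0.22) from control on the log2 scale, with limma adjusted p of 0.605 and 0.917. Without osimertinib 3 these differences were 0.53 (SE 0.16) and 0.70 (SE 0.16), with limma adjusted p of 0.217 and 0.270, and the groups no longer overlapped in either comparison. With the replicate block, which rests on osimertinib 1 to 3, the Fkbp5 differences were 0.13 (SE 0.21) from naphthalene and 0.31 (SE 0.21) from control.

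Zbtb16 (ENSMUSG00000066687, chromosome 9) encodes PLZF, a zinc finger repressor needed for innate-like lymphocytes and a strongly steroid-induced gene. It had 63.1, 46.3, 29.2, 107 and 94.5 CPM in osimertinib lungs, 21.5, 49.8 and 44.1 CPM in naphthalene lungs, and 12.6, 38.3 and 45.0 CPM in control lungs. Osimertinib 1, 4 and 5 were above all other libraries, while osimertinib 2 and 3 lay within the range of naphthalene lungs. The log2 difference of osimertinib was 0.75 (SE 0.47) from naphthalene and 1.10 (SE 0.47) from control, with limma adjusted p of 0.629 and 0.963. The second value was 0.55 without control 1 and 1.58 without osimertinib 2 and 3 together. With the replicate block, and so for osimertinib 1 to 3, the differences were 0.28 (SE 0.42) from naphthalene and 0.63 (SE 0.42) from control. The T cell markers cover T cells in general and do not single out innate-like lymphocytes. They summed to 26.5 to 40.7 CPM in osimertinib, 36.0 to 53.2 CPM in naphthalene and 42.1 to 46.8 CPM in control lungs. All 8 markers were above 0 in every library.

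Klf9 (ENSMUSG00000033863, chromosome 19) encodes a zinc finger transcription factor that hormones and the clock regulate. It had 129, 130.0, 75.2, 128 and 182 CPM in osimertinib lungs, 97.6, 110.0 and 156 CPM in naphthalene lungs, and 91.8, 100.4 and 125 CPM in control lungs. Osimertinib 1, 2, 4 and 5 lay above all controls, osimertinib 3 was the lowest library of all, and naphthalene 3 was the second highest. The differences were the smallest of the set in both osimertinib comparisons, 0.06 (SE 0.24) from naphthalene and 0.24 (SE 0.24) from control. Without osimertinib 3 they were 0.24 and 0.42. With the replicate block, and so for osimertinib 1 to 3, they were -0.14 and 0.04, the first with its sign turned.

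Tsc22d3, Per1 and Cebpd varied together, each pair passing the adjusted permutation test given with the other pairs. Tsc22d3 (ENSMUSG00000031431, chromosome X) encodes GILZ, which mediates part of the anti-inflammatory action of glucocorticoids by restraining NF-kB and AP-1. It had 195, 101, 143, 95.7 and 288 CPM in osimertinib lungs, 59.0, 74.0 and 116 CPM in naphthalene lungs, and 69.7, 98.4 and 138 CPM in control lungs. Osimertinib 1, 3 and 5 were above all other libraries, and osimertinib 2 and 4 lay among them. Tsc22d3 averaged 165 ± 79.8 CPM in osimertinib lungs and 82.9 ± 29.3 CPM in naphthalene lungs (SD, n = 5 and n = 3), a log2 difference of 0.91 (SE 0.35), the largest of the set in that comparison, with a limma p of 0.0238 and an adjusted p of 0.399. Against the control mean of 102 ± 34.1 CPM the difference was 0.62 (SE 0.35, limma adjusted p of 0.999). Within the high-share libraries, the lone osimertinib 2 differed from the 3 naphthalene libraries by 0.34 (SE 0.33), with its spread assumed to be that of the naphthalene group.

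Per1 (ENSMUSG00000020893, chromosome 11) encodes a repressor of the circadian clock that glucocorticoids also induce directly. It had 89.6, 32.3, 63.8, 29.9 and 127 CPM in osimertinib lungs, 21.2, 40.3 and 85.4 CPM in naphthalene lungs, and 24.7, 39.4 and 70.7 CPM in control lungs. The 3 groups overlapped over most of their range. The highest and the lowest library of all were osimertinib 5 and naphthalene 1. Per1 averaged 68.6 ± 41.1 CPM in osimertinib lungs, 49.0 ± 33.0 CPM in naphthalene lungs and 44.9 ± 23.5 CPM in control lungs (SD). On the log2 scale, osimertinib differed by 0.48 (SE 0.53) from naphthalene and 0.51 (SE 0.53) from control, with limma adjusted p of 0.799 and 0.999. Among the high-share libraries, osimertinib 2 was lower than the naphthalene mean, by a log2 difference of -0.37 (SE 0.60).

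Cebpd (ENSMUSG00000071637, chromosome 16) encodes C/EBP delta, a transcription factor of the acute phase response and of surfactant gene expression. It had 75.9, 59.8, 123, 35.4 and 127 CPM in osimertinib lungs, 34.4, 46.7 and 67.0 CPM in naphthalene lungs, and 39.7, 48.7 and 64.6 CPM in control lungs. Osimertinib 1, 3 and 5 were above all other libraries, and osimertinib 4 was below all but naphthalene 1. The log2 difference of osimertinib was 0.66 (SE 0.37) from naphthalene and 0.59 (SE 0.37) from control, with limma adjusted p of 0.578 and 0.999. The gene Spidr overlaps 562 bases of Cebpd exon on the opposite strand, and it had 11.9 to 15.9 CPM, with overlapping ranges in the 3 groups.

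In Sgk1 the osimertinib libraries lay above both other groups, with osimertinib 4 (71.2 CPM) close to control 3 (68.9 CPM) and naphthalene 3 (67.9 CPM). The gene encodes a kinase that keeps epithelial sodium channels at the cell surface and so supports fluid clearance from the airspace. Sgk1 (ENSMUSG00000019970, chromosome 10) had 76.9, 77.6, 117, 71.2 and 74.3 CPM in osimertinib lungs, 57.8, 53.8 and 67.9 CPM in naphthalene lungs, and 49.9, 63.7 and 68.9 CPM in control lungs. Every osimertinib library was above every naphthalene library and every control library, and naphthalene and control lungs overlapped. Of the 10 genes, Sgk1 alone was higher without overlap in osimertinib than in naphthalene lungs, which 3.82% of all genes were. Sgk1, Mt1 and Mt2 were so against control, which 2.91% of all genes were. Leaving out osimertinib 3, which was added after the values were seen, gave 2 of 10 genes against naphthalene (Fkbp5 and Sgk1, beside 6.45% of all genes) and 6 of 10 against control (Mt1, Mt2, Fkbp5, Sgk1, Zbtb16 and Klf9, beside 4.60%).

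Sgk1 averaged 83.5 ± 19.1 CPM in osimertinib lungs, 59.8 ± 7.28 CPM in naphthalene lungs and 60.9 ± 9.80 CPM in control lungs (SD, n = 5, n = 3 and n = 3). The log2 difference from naphthalene was 0.45 (SE 0.16), with a limma p of 0.0168 and an adjusted p of 0.356. From control it was 0.44 (SE 0.16), with a limma p of 0.0206 and an adjusted p of 0.874. Without osimertinib 3 the differences were 0.33 (SE 0.11) and 0.31 (SE 0.11). Within the libraries without the high read share it was 0.46 against control, and within the high-share libraries osimertinib 2 differed from naphthalene by 0.38.

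Sgk1 has 6 promoters in the RefSeq table, and the fifth is shown because it alone among the 16 promoters found for 8 of the 10 genes holds a full palindromic glucocorticoid response element. Its letters are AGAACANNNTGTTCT, searched on both strands, and it starts 189 bases before the gene start (chr10:21993640-21993939, + strand, GRCm38.p6; the element in capitals). Only 3 of the 32851 promoters in the table, 0.00913%, hold this full match. Its single arm AGAACA, which the full element contains on both strands, was found in 19.0% of promoters. Within these windows of 300 bases, Mt1, Mt2, Fkbp5, Per1, Klf9 and Pdk4 had no match to either, and Tsc22d3 had 1 single arm in 1 of its 3 promoters. Response elements of glucocorticoid targets often lie outside such windows, so the absence of a match says only that the letters are not there.
Sgk1: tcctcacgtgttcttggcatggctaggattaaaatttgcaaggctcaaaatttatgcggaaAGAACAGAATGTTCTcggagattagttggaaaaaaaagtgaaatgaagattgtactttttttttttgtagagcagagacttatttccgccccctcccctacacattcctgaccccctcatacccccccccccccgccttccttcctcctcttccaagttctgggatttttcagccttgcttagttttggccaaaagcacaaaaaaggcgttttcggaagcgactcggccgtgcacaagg

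Pdk4 was the gene of the set with the fewest reads. It encodes a kinase that shuts pyruvate dehydrogenase and shifts fuel use from glucose to fatty acids. Pdk4 (ENSMUSG00000019577, chromosome 6) had 8.17, 8.74, 6.59, 5.05 and 10.8 CPM in osimertinib lungs, 6.00, 3.56 and 3.67 CPM in naphthalene lungs, and 6.76, 3.67 and 3.74 CPM in control lungs. Osimertinib 1, 2 and 5 were above all other libraries, while naphthalene 1 and control 1 lay above osimertinib 4. The naphthalene values rest on 8 to 19 reads. Pdk4 averaged 7.87 ± 2.18 CPM in osimertinib lungs, 4.41 ± 1.38 CPM in naphthalene lungs and 4.72 ± 1.77 CPM in control lungs (SD). The osimertinib mean of log2 values was 0.71 (SE 0.26) above naphthalene and 0.64 (SE 0.26) above control, with limma p of 0.0171 and 0.0280 and adjusted p of 0.359 and 0.913.

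Per kilobase of annotated exon, the mean level over all 11 libraries was highest for Tsc22d3 (28.9 CPM per kb) and Klf9 (25.0), followed by Mt1 (21.2), Cebpd (17.5), Mt2 (16.5), Sgk1 (14.5), Per1 (10.1) and Zbtb16 (9.49). The lowest were Pdk4 (1.73) and Fkbp5 (1.29). The place of Mt2 in this order differed between the groups. Mt2 had 25.0 CPM per kb in osimertinib lungs, the fourth highest after Tsc22d3 (37.9), Mt1 (29.6) and Klf9 (26.8). In naphthalene lungs Mt2 had 13.1 CPM per kb, close to Cebpd (13.2) and Sgk1 (12.2), and in control lungs it had 5.77 CPM per kb, below Zbtb16 (6.05) and above only Pdk4 (1.35) and Fkbp5 (0.996). The place in osimertinib lungs rested on osimertinib 3, and leaving it out was added after the values were seen. Without that library Mt2 had 14.3 CPM per kb in osimertinib lungs, below Mt1 (20.2), Cebpd (19.9), Sgk1 (15.3) and Zbtb16 (14.7).

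The 10 genes also differed in how much they varied between libraries of the same group. The within-group SD of log2(CPM + 1) was 0.88 for Per1, 0.82 for Mt2, 0.78 for Zbtb16, 0.61 for Cebpd, 0.59 for Mt1 and 0.58 for Tsc22d3. Among genes of like level, 95.7% to 99.6% had a lower SD than these 6 genes. Klf9 (SD 0.38, above 91.1% of like genes), Pdk4 (0.38, above 71.0%), Fkbp5 (0.32, above 71.4%) and Sgk1 (0.25, above 82.1%) were steadier. The differences of osimertinib from both other groups were larger than this SD for Sgk1, Pdk4, Fkbp5, Mt1 and Tsc22d3, smaller than it for Per1 and Klf9, and on both sides of it for Mt2, Zbtb16 and Cebpd.

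Osimertinib 3 split the set. Relative to the mean of the osimertinib group, on the log2 scale, the deviations of that library were 1.75 for Mt2, 1.36 for Mt1, 0.68 for Cebpd and 0.51 for Sgk1, and -1.05 for Zbtb16, -0.72 for Klf9 and -0.65 for Fkbp5. Its 3 remaining genes, Tsc22d3, Per1 and Pdk4, deviated by -0.08, 0.11 and -0.19. The neutrophil markers were high in the same library: S100a8 had 131 CPM and S100a9 had 182 CPM in osimertinib 3, against at most 17.2 and 22.0 CPM in the other osimertinib libraries. Naphthalene 3, with 129 CPM of S100a8 and 146 CPM of S100a9, had the highest values of its group for all but Zbtb16 and Pdk4. These included Fkbp5 (11.9 CPM) and Klf9 (156 CPM), which were lowest of their group in osimertinib 3. Mt1 (24.8 CPM) and Mt2 (9.64 CPM) of naphthalene 3 were close to naphthalene 1, whose neutrophil sum was 43.6 CPM. All 8 neutrophil markers were above 0 in both libraries, while Ly6g was at 0 in osimertinib 2, naphthalene 2 and all controls, and Ngp in osimertinib 2 and naphthalene 2. The part of neutrophils in the metallothionein values was not tested.

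**Figure D4:**
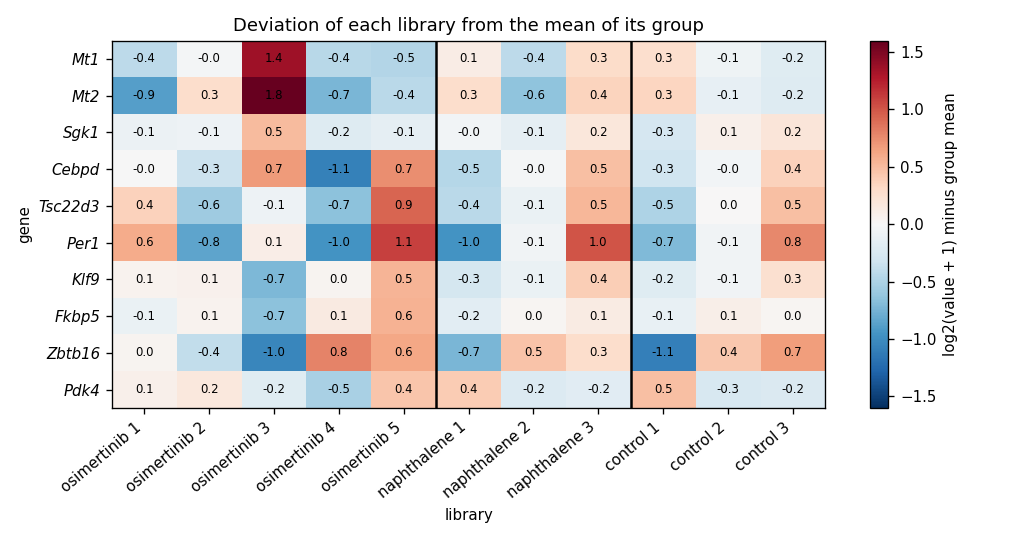
Deviation of each library from the mean of its group, in log2(CPM + 1), for the 10 genes (rows) and 11 libraries (columns; vertical lines separate the groups). Osimertinib 3 is high for the upper 4 genes and low for Klf9, Fkbp5 and Zbtb16, and Per1, Tsc22d3 and Cebpd share the sign of their deviation in osimertinib 2, 4 and 5 and in most other libraries.

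Of the 45 pairs of the 10 genes, 39 had a positive Pearson r over the 11 libraries, and 6 passed an adjusted permutation p of 0.05 for both Pearson's r and Spearman's rho. Beside Mt1 with Mt2, these were Tsc22d3 with Per1 (r 0.91, rho 0.90), Tsc22d3 with Cebpd (r 0.86, rho 0.95), Per1 with Cebpd (r 0.85, rho 0.90), Fkbp5 with Klf9 (r 0.83, rho 0.88) and Fkbp5 with Zbtb16 (r 0.83, rho 0.90). For these 5 pairs the permutation p of r was 0.00011 to 0.00132 and the adjusted p over the 45 pairs 0.00247 to 0.0099, and for rho they were 3e-05 to 0.00072 and 0.00135 to 0.0054. The pairs were computed with the values of these genes already known. Without the 2 libraries farthest from the median of the first gene, r ranged from 0.72 to 0.84 over these 5 pairs. For deviations from the group means, r was 0.98 for Tsc22d3 with Per1 and 0.72 to 0.90 for the other 4. Within the 7 libraries without the high read share, r was 0.84 to 0.98.

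Over the 11 libraries, no relation between the metallothioneins and Fkbp5 passed the permutation test. Mt1 and Fkbp5 had an r of -0.03 and a rho of 0.27 (permutation p of 0.941 and 0.419, adjusted p of 0.962 and 0.571), and r was 0.57 without osimertinib 3. Deviations from the group means ran in opposite directions, with r of -0.78 for Mt1 with Fkbp5 and -0.68 for Mt2 with Fkbp5. Without osimertinib 3 these were -0.25 and -0.04. The relation of Mt1 with Sgk1 (r 0.83, rho 0.71, adjusted permutation p of 0.0348 and 0.0958) rested on osimertinib 3, without which r was 0.52. Pdk4 had its highest r with Fkbp5, 0.50 (adjusted permutation p of 0.286).

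Among 11694 genes with a mean of at least 5, the 5 whose levels were most like Mt1 over the 11 libraries were Vcpkmt (r 0.98), Npc2 (0.97), Ifi207 (0.97), Ctnnb1 (0.97) and Ccl21a (0.97), and Mt2 came sixth. In each of these 5 genes osimertinib 3 was the highest library. Ifi207, an interferon-inducible gene, had 22.1 CPM in osimertinib 3 and at most 12.7 CPM elsewhere, and Ccl21a, a chemokine that guides T cells and dendritic cells, had 114 CPM there and at most 46.3 CPM elsewhere. The 5 most like Fkbp5 were Foxo3 (r 0.95), Wwtr1 (0.90), Lamp2 (0.89), Adam17 (0.89) and Cfb (0.89), with Klf9 at rank 28 and Zbtb16 at rank 31. Foxo3, a transcription factor of starvation and stress, averaged 144 CPM in osimertinib lungs, 115 CPM in naphthalene lungs and 109 CPM in control lungs.

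Levels of the receptor itself overlapped between the groups. Nr3c1, the glucocorticoid receptor, had a median of 183 CPM (166 to 189.6) in osimertinib lungs, 191 CPM (185 to 197) in naphthalene lungs and 192 CPM (187 to 194) in control lungs. Of 15 genes of the receptor pathway (the receptors, the 11-beta-hydroxysteroid dehydrogenases, chaperones and coregulators), 0 passed the limma threshold in any comparison. Their median log2 difference was -0.01 between osimertinib and naphthalene, 0.02 between osimertinib and control and -0.03 between naphthalene and control. The chaperone gene Hspa8 averaged 799 ± 279 CPM in osimertinib lungs and 468 ± 126 CPM in naphthalene lungs, a log2 difference of 0.74 (limma adjusted p of 0.363). Nr3c2, the mineralocorticoid receptor, which also binds glucocorticoids, averaged 17.8 ± 1.54 CPM in osimertinib lungs and 22.4 ± 3.19 CPM in naphthalene lungs, a log2 difference of -0.31 (limma adjusted p of 0.399). Hsp90ab1, a subunit of the chaperone that holds the receptor, averaged 371 ± 39.3 CPM in naphthalene lungs and 493 ± 24.4 CPM in control lungs (log2 difference -0.41, limma adjusted p of 0.639). The co-chaperone gene Ptges3 differed by -0.14 in that comparison. Between osimertinib and control, Hspa8 differed by 0.54 and Nr3c2 by -0.28.

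A wider list of 26 glucocorticoid targets, 25 of them tested, also lay mostly above 0 in osimertinib lungs. None passed the limma threshold over all genes. This list too was chosen with earlier results of these data known, so its counts are description and no independent test. Between osimertinib and naphthalene 22 of 25 lay above 0, with a median log2 difference of 0.32, and 6 had an unadjusted p under 0.05, all higher, where 60.5% of all genes lay above 0 and 7.08% were higher at that level. Between osimertinib and control 16 of 25 lay above 0, with a median of 0.24, and 5 had an unadjusted p under 0.05, all higher, beside 48.0% and 2.31% of all genes. In naphthalene against control 8 of 25 lay above 0, beside 38.0% of all genes, with a median of -0.12. At that level 1 was higher and 3 were lower, beside 1.73% and 5.74% of all genes. Cdkn1a, the cell cycle inhibitor p21, had 39.2, 37.1, 42.7, 35.8 and 57.8 CPM in osimertinib lungs, 20.5, 24.1 and 25.7 CPM in naphthalene lungs, and 23.8, 23.3 and 35.6 CPM in control lungs, so that the osimertinib libraries lay above all others, osimertinib 4 and control 3 being close together. Its log2 difference from naphthalene was 0.81 (limma p of 0.000554, adjusted p of 0.188). Cdkn1a is also a target of p53. Lcn2, an iron-sequestering acute phase protein, averaged 124 ± 85.6 CPM in osimertinib lungs, 113 ± 16.8 CPM in naphthalene lungs and 48.6 ± 8.87 CPM in control lungs, with log2 differences from control of 1.13 for osimertinib and 1.21 for naphthalene (limma adjusted p of 0.761 and 0.586). Bcl6, a transcriptional repressor, averaged 30.6 ± 4.65 CPM in osimertinib lungs, 23.5 ± 3.15 CPM in naphthalene lungs and 33.4 ± 3.30 CPM in control lungs, a log2 difference of 0.36 for osimertinib from naphthalene and of -0.49 for naphthalene from control (limma adjusted p of 0.374 and 0.495).

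Zinc transport genes and the zinc sensor were examined beside Mt1 and Mt2. Of 12 genes of zinc and metal handling, 9 were measured, and 0 of the 9 passed the limma threshold in any comparison. Slc39a8, which carries zinc and manganese into the cell, averaged 170 ± 14.0 CPM in osimertinib lungs, 222 ± 38.7 CPM in naphthalene lungs and 156 ± 15.5 CPM in control lungs. The log2 difference of naphthalene from control was 0.50, with an adjusted p of 0.466 by limma and of 0.0473 by DESeq2, which called 0.0740% of all genes in that comparison. Mtf1, the zinc sensor that drives metallothionein transcription, had 18.9 to 25.6 CPM in the 11 libraries, with overlapping ranges in the 3 groups. The log2 difference of osimertinib from naphthalene was -0.37 for Slc39a8 and -0.22 for the zinc exporter Slc30a4, which differed by 0.18 between naphthalene and control. From control, osimertinib differed by 0.14 for Slc30a7 and 0.12 for Slc39a1, both zinc transporters.

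Inflammatory and metabolic targets were compared through lists that share no member with the set. Of 12 tested genes of the acute phase response, 0 passed the limma threshold. Saa3, a serum amyloid A gene, averaged 3.77 ± 2.47 CPM in osimertinib lungs, 0.210 ± 0.365 CPM in naphthalene lungs and 0.407 ± 0.160 CPM in control lungs, with limma adjusted p of 0.178 and 0.336 for the differences of osimertinib from naphthalene and control. Lbp, the lipopolysaccharide-binding protein, averaged 37.7 ± 5.29 CPM in osimertinib lungs and 26.0 ± 1.29 CPM in control lungs, a log2 difference of 0.51 with an adjusted p of 0.450 by limma and 0.0291 by DESeq2, which called 0.481% of all genes in that comparison. Cebpb, which shares targets with Cebpd, averaged 44.1 ± 19.0 CPM in osimertinib lungs and 20.2 ± 8.20 CPM in naphthalene lungs (log2 difference 1.05, limma adjusted p of 0.305), and differed by -1.18 between naphthalene and control (limma adjusted p of 0.519). Hp, the haemoglobin-binding haptoglobin, differed by -0.43 between naphthalene and control.

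Of 16 genes of fatty acid oxidation and PPAR signalling, the company in which Pdk4 is usually induced in fasting, 0 passed the limma threshold, and their median log2 differences were 0.14 between osimertinib and naphthalene and 0.08 between osimertinib and control. Angptl4, an inhibitor of lipoprotein lipase that both PPARs and glucocorticoids induce, had 37.3, 28.6, 37.9, 17.6 and 28.9 CPM in osimertinib lungs, 6.95, 6.72 and 24.8 CPM in naphthalene lungs, and 30.3, 5.63 and 6.75 CPM in control lungs. Naphthalene 3 and control 1 lay within the osimertinib range, and the log2 difference of osimertinib was 1.37 from naphthalene and 1.36 from control (limma adjusted p of 0.38 and 0.886). Ppargc1a, a coactivator of mitochondrial genes, differed by 0.30 between osimertinib and control, and Ppard by -0.25 between naphthalene and control. Cpt1b, at 2.14 CPM or below in every library, differed by 0.68 between osimertinib and naphthalene and by -0.62 between naphthalene and control. Among 12 immediate early genes, all 12 had a log2 difference below 0 between naphthalene and control, and 11 of 12 between osimertinib and control, with 0 past the limma threshold. Of all genes, 62.0% lay below 0 between naphthalene and control and 52.0% between osimertinib and control. Nr4a1, a nuclear receptor that stimuli induce within minutes to hours, averaged 22.7 ± 4.13 CPM in osimertinib lungs and 69.6 ± 25.8 CPM in control lungs (log2 difference -1.53, adjusted p of 0.313 by limma and 1.34e-05 by DESeq2), and its log2 difference from naphthalene was -0.85. Egr1, an early growth response factor, differed by -1.86 between osimertinib and control (adjusted p of 0.452 by limma and 0.0284 by DESeq2) and by -0.94 between osimertinib and naphthalene. Btg2 and Ier2 differed by -0.56 and -0.46 between naphthalene and control.

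Over all 11 libraries, Per1 levels bore no detectable relation to those of Dbp. The 3 libraries with the highest Dbp were set apart by 9 of the 16 other clock genes, Dbp included, and not by Per1. Dbp, an output of the clock, had 8.55, 2.91, 2.67, 6.52 and 4.6 CPM in osimertinib lungs, 6.63, 20.6 and 56.4 CPM in naphthalene lungs, and 18.2, 4.13 and 3.28 CPM in control lungs. Naphthalene 2, naphthalene 3 and control 1 were the 3 highest libraries for Dbp and also for Nr1d1, a repressor of the clock, with 129, 141 and 89.6 CPM against 20.7 to 57.1 CPM in the other 8. The activator Npas2 and the repressor Cry1 were lowest in the same 3 libraries, at 5.54, 5.51 and 7.22 CPM for Npas2 and 5.14, 5.05 and 7.22 CPM for Cry1. In all, 5 of the 16 genes were higher in each of those 3 libraries than in the other 8, and 4 were lower. The libraries were chosen by their Dbp values, so Dbp is among the 5 by that choice. The share of all genes that set these libraries apart was not computed, and naphthalene 2 and naphthalene 3 are also libraries with the high read share. These counts therefore cannot be read as particular to clock genes. The remaining 7, among them Clock, Per2 and Cry2, did not set these libraries apart. Per1 was 40.3, 85.4 and 24.7 CPM in those 3 libraries, all 3 below the 127 CPM of osimertinib 5 and above the lowest value of 21.2 CPM in naphthalene 1. Over the 11 libraries Per1 and Dbp had an r of 0.02 and a rho of 0 (permutation p of 0.952 and 1, and the same after adjustment over 8 pairs chosen for this purpose). The r was -0.49 within the 7 libraries without the high read share and 0.24 for deviations from the group means, so its sign was not stable.

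Of the 16 other clock genes tested, 4 were higher and 4 lower in osimertinib than in naphthalene lungs at an unadjusted p under 0.05, beside 7.08% and 3.22% of all genes. At that level 2 were higher and 4 lower in naphthalene than in control lungs, beside 1.73% and 5.74% of all genes. None had such a p between osimertinib and control, where 4.80% of all genes did. None passed after adjustment. Nfil3, a repressor of Dbp targets, averaged 10 ± 2.99 CPM in osimertinib lungs, 3.45 ± 1.93 CPM in naphthalene lungs and 7.18 ± 2.23 CPM in control lungs, with a log2 difference of osimertinib from naphthalene of 1.34 (limma p of 0.000736, adjusted p of 0.188). For Npas2 that difference was 1.01, and between naphthalene and control the differences were -0.94 for Npas2 and -0.84 for Cry1. The smallest p-values between osimertinib and control were those of Per2 (log2 difference 0.49) and Nfil3 (0.42), with limma adjusted p of 0.999 for both. The labels give no hour of collection, so its part in these values, and in those of Per1, was not tested.

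**Figure D5:**
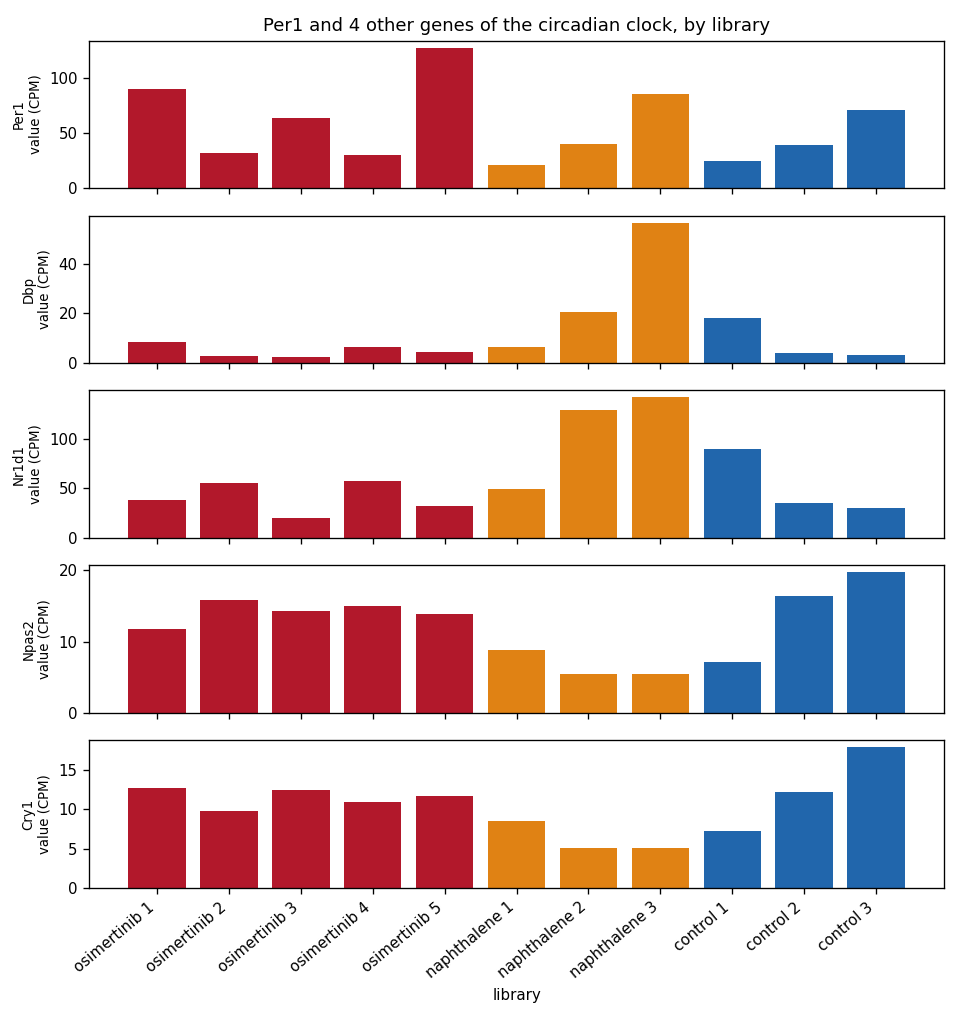
Deposited values (CPM, vertical axes starting at 0) of Per1, Dbp, Nr1d1, Npas2 and Cry1 in each library, with 1 bar per library coloured by group. Naphthalene 2, naphthalene 3 and control 1 have the highest Dbp and Nr1d1 bars and the lowest Npas2 and Cry1 bars, and Per1 does not follow them.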

How the data were processed

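Libraries were made from total RNA of whole lung, depleted of ribosomal RNA, with a strand-keeping kit, per the labels' protocols. The file holds 1 column of normalised signal per library as the authors deposited it. For the steps before that, the submitters' processing notes list RSEM 1.3.0, edgeR, Bowtie2, Trimmomatic 0.38 and, as build, GRCm39, with no roles given. All values (100%) were whole multiples, within 0.01, of what 1 read is worth in the library, and the implied scaling equalled edgeR's TMM factors. Of 23255 genes, 23123 were named through GENCODE M21 (GRCm38), which also gave exon lengths and overlaps. Promoters came from RefSeq (GRCm38.p6).

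The 11 libraries (osimertinib 5, naphthalene 3, control 3) were fitted together with limma 3.58.1 (R 4.3.3) on log2(value + 1) with a variance trend, 8 residual degrees of freedom, a minimum mean of 1 (16225 genes) and Benjamini-Hochberg adjustment at 0.05. This scale understates differences of low genes. Recovered reads were tested with edgeR 4.0.16 and DESeq2 1.42.0 as alternatives, with other pseudocounts, filters, scalings, groupings and left-out libraries. The fit was tested on simulated data. Two-sided permutation tests of correlations drew 100000 resamples, and 2e-05 is the smallest p they can give.

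The members and lists were chosen with earlier results of these data known. All 10 members are named. Of each other list, the genes with the smallest p in each comparison (up to 2, as none passed) are named, and for likeness the 5 with the highest r. Over all genes tested, deviations of same-numbered naphthalene and osimertinib libraries from their group means had r of 0.12, 0.16 and 0.52. Control libraries had r of -0.15 to 0.20 with those of the same number in either group. Only osimertinib 3 with naphthalene 3 lay above that range, so these r do not establish pairing by number. The replicate block is given as an alternative.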

Additional observations from a re-analysis of the deposited data

Results flagged for a closer look

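In the osimertinib group, 3 of the 10 genes had 1 library far from the other 4, judged by Dixon's gap test on the deposited values, and in each case it was osimertinib 3. Mt1 stood at 83.2 CPM in that library, with 31.2 CPM the next highest. Mt2 stood at 39.7 CPM, with 13.8 CPM the next highest. Sgk1 stood at 117 CPM, with 77.6 CPM the next highest. The test was run for 10 genes, in the osimertinib group alone, and chance flags about 1 in 20 groups. The genes are not independent, since the 3 values come from the same library, in which the neutrophil marker sum was also high (409 CPM, against 40.7 to 73.1 CPM in the other 4). The part of that library's makeup in the 3 values was not tested.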

How the results depend on the processing

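Without any single library, the differences of all 10 genes between osimertinib and control stayed above 0. Over 25 alternatives, 246 of 250 values of single genes kept their direction and call between osimertinib and control, as did 235 of 250 between osimertinib and naphthalene and, over 24 alternatives, 209 of 240 between naphthalene and control. As 0 of the 10 genes were called in the fit reported, the status kept is that of not being called. Leaving out a library of the group outside a comparison cannot change its log2 difference, so part of these counts was fixed in advance. Scaling every library to an equal total, in which the gene with the high read share counts, shifted the median gene by 1.11 between osimertinib and naphthalene, -0.34 between osimertinib and control and -1.46 between naphthalene and control. It called 14282, 88 and 15509 genes in that order, and 10, 0 and 9 of the 10 genes, whose differences then follow that shift. It gave, between naphthalene and control, -1.09 for Mt1, -0.33 for Mt2, -1.22 for Fkbp5, -1.49 for Per1, -1.15 for Zbtb16 and -1.37 for Klf9, and between osimertinib and control -0.13 for Klf9. For the other settings the cause was not tested.

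Between osimertinib and naphthalene, 0 genes were called in the fit reported, 1 with quantile normalisation, 1 with only the groups compared, 4 with array weights, 47 without osimertinib 2 and 3, and 33 by DESeq2 on recovered reads. Leaving out 1 library gave 0 to 11, 11 without osimertinib 2 and 4 without osimertinib 3. Between osimertinib and control, 1 gene was called, against 0 with the replicate block, 2 without the high-share libraries, 2 without osimertinib 2 and 3, 149 with array weights and 78 by DESeq2, and 0 to 2 without 1 library. In naphthalene against control 0 were called, against 21 with only the groups compared, 5 with array weights, 38 without osimertinib 2 and 3, 12 by DESeq2, and 0 to 12 without 1 library, 12 without osimertinib 2. Of the 10 genes, array weights called 2 between osimertinib and control (Mt1, 0.73, limma adjusted p of 0.0386, and Fkbp5, 0.64, 0.0343), DESeq2 called 1 (Mt2), and no other setting beside equal totals called any. The block changed no other call after adjustment.

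Some differences of single genes changed sign. Between naphthalene and control, Sgk1 was 0.038 with median-ratio scaling, 0.0044 with quantile normalisation and 0.032 by DESeq2, Pdk4 was 0.018 with quantile normalisation and 0.12 with array weights, Per1 was -0.42 and Zbtb16 -0.019 with array weights, and Cebpd was 0.0027 by DESeq2. Leaving out 1 library gave -0.15 to 0.077 for Sgk1, -0.31 to 0.16 for Cebpd, -0.27 to 0.17 for Pdk4, -0.47 to 0.51 for Per1, -0.018 to 0.32 for Klf9 and -0.19 to 0.72 for Zbtb16. Between osimertinib and naphthalene, Klf9 was -0.14 with the replicate block and -0.079 to 0.26 without 1 library, Per1, 0.48 in the fit reported, was -0.37 in the high-share libraries, and Mt2, 0.54 in the fit reported, was -0.14 without osimertinib 2 and 3. In the high-share libraries osimertinib had 1 library, assumed to vary like the naphthalene group, and 9 of the 10 genes lay above 0 with a median of 0.36. Without those libraries, the median against control was 0.70, all 10 above 0. Mt1, Mt2 and Sgk1 then had an unadjusted limma p under 0.05, beside 5.18% of all genes in either direction. Depth limits Pdk4 and Mt2 most, at 8 and 11 reads in their shallowest libraries.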
